A study of Mus musculus with 9 samples.

Results

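The genes described here encode the hnRNP and SR splicing factors, measured by RNA immunoprecipitation and sequencing (RIP-seq) with an antibody against HuR in mouse liver. They were chosen by name in the deposited table: 19 genes whose names begin with Hnrnp, 11 whose names begin with Srsf, and Tra2a, Tra2b, Pcbp1, Pcbp2, U2af1, U2af2, Ptbp1 and Ptbp2. Names containing -ps and 1 further Hnrnp gene were not used here. That makes 38 members among the 33732 gene names of the table. Every library came from the whole healthy liver of wild-type C57BL/6 mice at 8 weeks of age. HuR RIP (n = 3) used an antibody against HuR, IgG RIP (n = 3) a control antibody, and Input the lysate RNA. The pull-downs were made without crosslinking, each from the lysate of 1 liver, and whole-liver lysate pools every cell type of the organ. The labels do not say whether an HuR and an IgG library with the same number share a liver, so p-values measure only the spread between these libraries.

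HuR (gene symbol Elavl1) binds RNA with a preference for U-rich and AU-rich stretches, many of them in 3' untranslated regions (UTRs), and is known for stabilising bound mRNAs. SR proteins bind exonic enhancers and help recruit the splicing machinery, while hnRNP proteins coat nascent transcripts and often repress nearby exons. Many genes of both families limit their own output by including a cassette exon that carries a premature stop codon, or by processing the 3' end differently, so that the mRNA goes to nonsense-mediated decay.

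Values are RPKM, reads scaled to exon length and library depth, restored from the authors' exon table and summed per gene. The step between low values gave library sizes of 26.6, 26.3 and 26.9 M (mega) reads for HuR 1, 2 and 3 and of 15.9, 26.7 and 28.8 M for IgG 1, 2 and 3. Input was deposited only as a mean over its libraries, of unknown depth and spread. Summed over 10 hepatocyte markers, RPKM was 1062 to 1291 in the HuR libraries, 404 to 1139 in the IgG libraries and 996 in Input. In the same order, 10 macrophage markers summed to 12.7 to 21.2, 3.72 to 35.2 and 9.83, and 5 red cell markers to 64.5 to 172, 98.7 to 234 and 68.9. Stellate markers (10) summed to 5.30 to 18.4, 1.01 to 7.24 and 3.35, and lymphocyte markers (7, with Nkg7 at 0 in all 6 RIP libraries) to 0.0681 to 2.55, 0 to 0.132 and 0.0783. For 2 lists the groups did not overlap, as for many members: cholangiocyte markers (6) summed to 3.89 to 13.1, 0.0343 to 0.662 and 0.459, and sinusoidal endothelial markers (10) to 7.61 to 18.2, 1.11 to 7.22 and 2.53. Their part in the members' values was not tested. Column names carry the letters M, M and F for numbers 1, 2 and 3 in both RIP groups. However, Xist stood at 10.2 RPKM under HuR 2 and 0.463 under HuR 3, while Y-linked Ddx3y stood at 0.0188 and 2.04. Under IgG 2 and IgG 3 the same genes went with the letters, at low values. Xist stood there at 0.103 and 0.359 RPKM and Ddx3y at 0.0558 and 0. The authors' fold columns number HuR 2 and HuR 3 the other way round. The numbering of the RPKM columns was kept. The main comparison of HuR RIP with IgG RIP does not use it, while the alternative with the replicate number as a block does.

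Members were sparse in every library. Reads on the 38 genes summed to 10166, 9108 and 7373 for HuR 1 to 3 and to 2820, 801 and 1503 for IgG 1 to 3. The median member had 191, 166 and 148 reads in HuR RIP, compared with 45.5, 12.5 and 14 in IgG RIP. Between 1 and 2 members had fewer than 3 reads in an HuR library, against 3, 9 and 15 members in IgG 1, 2 and 3. These reads carry no molecular identifiers and are not independent molecules, so counts describe reads and not RNA copies.

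Most splicing factor genes stood higher in the HuR libraries than in the IgG libraries, but no member passed the test. Median RPKM over the 38 members was 1.72, 1.39 and 1.24 for HuR 1 to 3, compared with 0.635, 0.0829 and 0.0824 for IgG 1 to 3, and 0.164 for Input. Over the 5510 genes tested, the medians were 2.02, 1.99 and 1.54, then 1.33, 0.389 and 0.296, and 0.412 in Input. IgG 1 held the highest IgG value for 30 of the 38 members. The plot of member RPKM by library shows IgG 1 as the open circle nearest the HuR points for most genes.

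**Figure D1:**
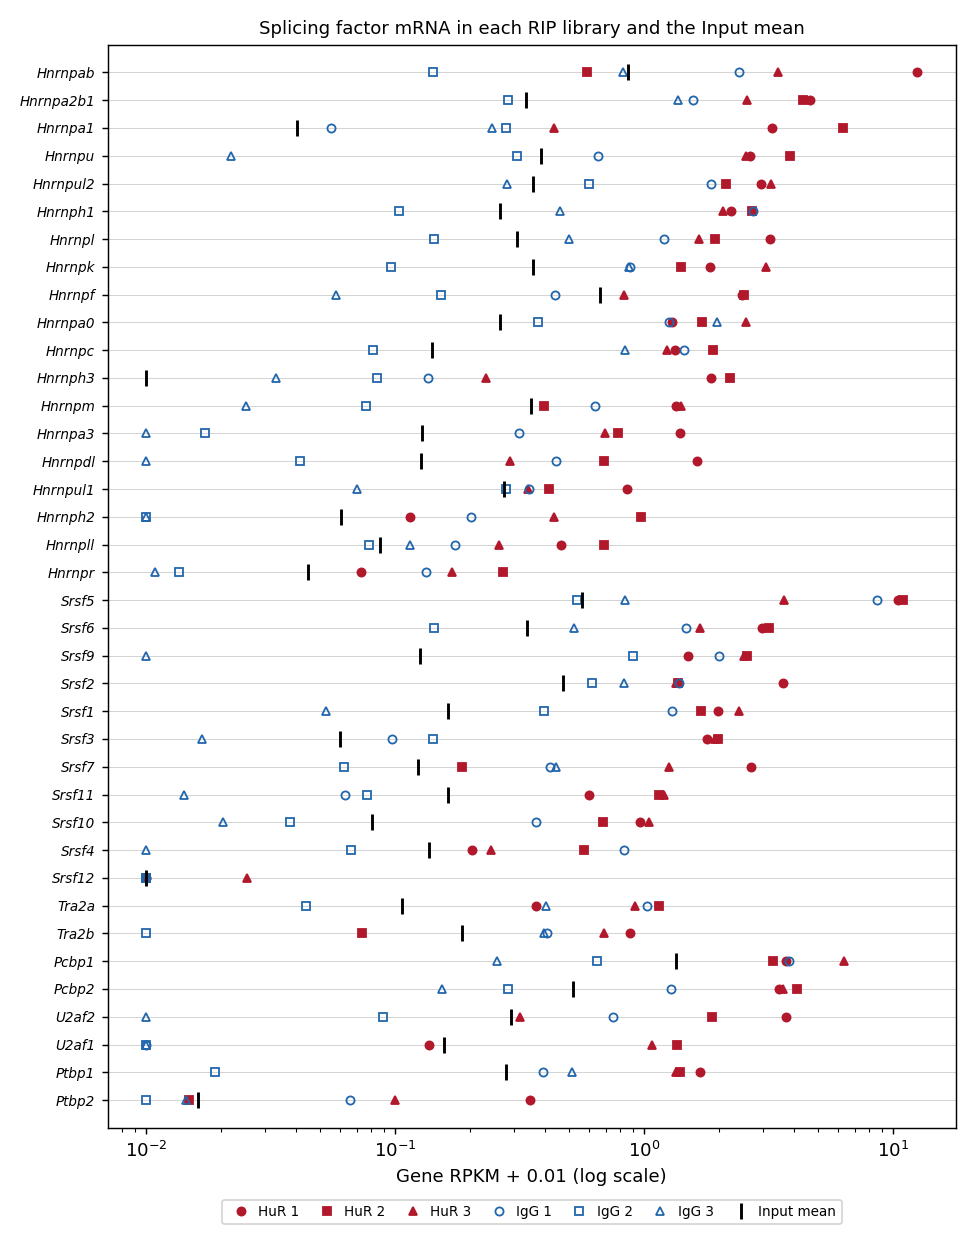
RPKM of the 38 splicing factor genes (y axis, grouped by family and ordered by HuR mean) on a log axis, with 0.01 added so that 0 can be drawn. Filled red symbols are the 3 HuR libraries, open blue symbols the 3 IgG libraries and the black bar the Input mean, which has no replicate; for 18 genes every red symbol lies to the right of every blue one.

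The test was limma on log2(RPKM + 0.5), two-sided, over genes with RPKM of at least 0.5 in at least 3 of the 6 RIP libraries, with Benjamini-Hochberg adjustment over all genes tested and a threshold of 0.05. Of the 38 members, 25 passed the filter, and 0 of those 25 passed the threshold in either direction. Across all tested genes, 37 were called higher in HuR RIP (0.672%) and 7 lower (0.127%). Unadjusted, 9 of the 25 were higher at p under 0.05, against 27.9% of all tested genes. Adjusted p stood between 0.0632 for Srsf3 and 0.580 for Hnrnpa0. The calls moved with the gene set and with IgG 1. With protein-coding genes alone, Srsf3, Hnrnpu, Pcbp2, Srsf11 and Hnrnpf passed, in a fit that called 727 genes higher (18.4%). Without IgG 1, Pcbp2, Hnrnpu, Srsf3, Srsf5 and Pcbp1 passed, beside 720 genes (13.1%). With the filter at RPKM 1, Srsf3 alone passed, beside 144 genes (4.16%).

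Direction was shared more widely than the calls. All 3 HuR libraries lay above all 3 IgG libraries for 18 of the 38 members, against 13.3% of the 28263 genes with a read in any RIP library, and for 14 of the 25 members tested, against 31.3% of tested genes. Those 18 were 10 of 19 hnRNP genes, 5 of 11 SR genes, Pcbp2, U2af1 and Ptbp1. Srsf3, Srsf10, Srsf11, Hnrnpa3 and Hnrnpf had every IgG value under 0.5 RPKM, so they passed the filter only through the HuR libraries. For genes that passed in this way, members or not, the filter itself sets the groups apart. Their lack of overlap is therefore no separate finding, and their share among tested genes was not counted. No member had all HuR libraries below all IgG libraries, which held for 1.26% of genes with a read and 3.48% of tested genes. Without a filter, the log2 fold change was above 0 for 38 of 38 members, against 71.6% of genes with a read. Genes with a read mostly stood far lower than members, with median RPKM of 0.0262, 0.0239 and 0.0569 in HuR 1, 2 and 3. The member medians were 1.72, 1.39 and 1.24. A gene at 0 in any HuR library cannot have all 3 HuR libraries above all 3 IgG libraries. Shares over genes with a read are therefore no background at like level. The whole RPKM scale was shifted: the median log2 fold change of tested genes was 0.92, and 79.0% of tested genes had a value above 0. Of the 25 tested members, 21 lay above that median. All members are protein-coding, and the 5510 tested genes are not. With protein-coding genes only, the median was 1.08 over 3943 genes, and 20 of the 25 members lay above it. The share of coding genes alone without overlap between the groups was not computed. With the libraries centred at their medians, 20 of the 25 had a log2 fold change above 0, and Hnrnpa0, Hnrnpc, Hnrnpm, Srsf2 and Tra2a had one below 0.

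**Figure D2:**
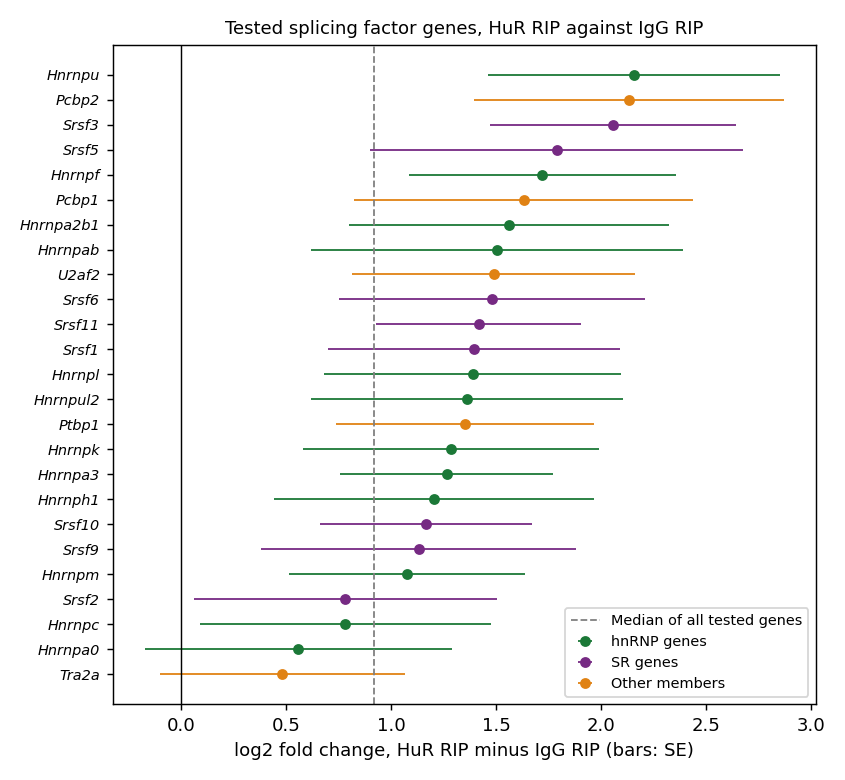
Log2 fold change of HuR RIP over IgG RIP (x axis) with its standard error (bars) for the 25 tested members, green for hnRNP genes, purple for SR genes and orange for the others. The dashed line is the median of all tested genes (0.92); 21 members lie to its right, and Tra2a (0.48) and Hnrnpa0 (0.56) lie lowest.

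The 3' UTRs of these genes were U-rich. The longest annotated 3' UTR of each member (GENCODE M21, GRCm38/mm10) had a median U content of 34.4%, against 29.1% over 3925 tested protein-coding genes, at median lengths of 1304.5 and 1236 bases. A run of 7 U (UUUUUUU) was found in 28 of 38 members (73.7%), against 47.6% of tested coding genes of like 3' UTR length. UUUAUUU was found in 24 members (63.2%, against 41.6%) and AUUUA in 34 (89.5%, against 72.3%). The longer AU-rich motif UAUUUAU was found in 10 (26.3%, against 27.9%). Motifs were searched on the transcript strand only, UAUUUAU contains AUUUA, and a match describes letters and not a binding site.

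The most U-rich 30 bases of the 3' UTR are shown for the 3 members of smallest p, the 3 of largest p, and Hnrnpl, whose window held more U than that of any gene of like UTR length. They are written 5' to 3' with matches to the first 3 motifs above in capitals.
Srsf3: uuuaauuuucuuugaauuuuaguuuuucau
Hnrnpu: guugaUUUUUUUUUUUUUcuuuucuuuuuu
Srsf11: cugauuuucaguuuucaacuuuuaguuuuu
Srsf2: uuuuuguuuauagugcugacuuuuuuguuu
Tra2a: uuugcuuuuucuucuuuuugauuuuggauu
Hnrnpa0: ucUUUUUUUUUUUUUUUccccuuccuguuu
Hnrnpl: UUUUUUUUUUUUUUUUcuugUUUUUUUUUU

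On GRCm38 these windows lie at chr17:29041659-29041688 (+) for Srsf3, chr1:178329188-178329217 (-) for Hnrnpu and chr3:158011244-158011273 (-) for Srsf11. Those of Srsf2, Tra2a and Hnrnpa0 lie at chr11:116850660-116850689 (-), chr6:49244666-49244695 (-) and chr13:58126775-58126804 (-). That of Hnrnpl lies at chr7:28821979-28822008 (+). The windows held 20 U in Srsf3, 25 in Hnrnpu and 18 in Srsf11, and 20, 21 and 22 in Srsf2, Tra2a and Hnrnpa0. U-rich windows stood in the members of largest p as well as in those of smallest p. As many U as in the Hnrnpl window (28) were found in 0% of 287 like-length genes, while 54.2% of 690 like-length genes matched or passed Srsf3.

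Among the SR genes, Srsf3, which encodes the smallest SR protein and a factor in mRNA export, gave the lowest p of all members. Srsf3 (ENSMUSG00000071172.13, chr17:29032628-29043373, + strand) stood at 1.78, 1.97 and 1.91 RPKM in HuR 1, 2 and 3, at 0.0865, 0.132 and 0.00679 in IgG 1, 2 and 3, and at 0.0501 in Input. The HuR libraries lay close together and far above every IgG library and Input. The log2 fold change was 2.06 (SE 0.586, limma adjusted p = 0.0632). Srsf11, an SR protein known to bind U2AF (chr3:158010473-158036639, - strand), stood at 0.588, 1.13 and 1.19 RPKM in the HuR libraries and at 0.0527, 0.0672 and 0.0041 in the IgG libraries, with Input at 0.152. Again the groups did not overlap, and the log2 fold change was 1.42 (SE 0.487, limma adjusted p = 0.0838).

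Srsf1, the founding SR protein, stood at 1.97, 1.68 and 2.39 RPKM in the HuR libraries against 1.28, 0.385 and 0.0426 in the IgG libraries. Srsf6 stood at 2.95, 3.15 and 1.67 against 1.46, 0.133 and 0.512, and Srsf10, which acts as a repressor when dephosphorylated, at 0.954, 0.671 and 1.04 against 0.356, 0.0278 and 0.0104. In all 3 genes the groups did not overlap, with IgG 1 closest to the HuR range. Their log2 fold changes were 1.40, 1.48 and 1.17, with limma adjusted p of 0.171, 0.166 and 0.126.

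Srsf5 had the highest RPKM of the SR genes, at 10.4, 10.9 and 3.63 in HuR 1, 2 and 3. IgG 1, at 8.60, lay inside that range, while IgG 2 and IgG 3 stood at 0.528 and 0.826. The log2 fold change was 1.79 (limma adjusted p = 0.170), and 2.78 without IgG 1 (adjusted p = 0.0447). Srsf2, which binds exonic enhancers and also acts in transcription elongation, showed little separation: 3.61, 1.35 and 1.33 RPKM in the HuR libraries against 1.37, 0.609 and 0.821. HuR 1 alone stood clear of the IgG libraries, and the log2 fold change of 0.78 (limma adjusted p = 0.432) went to -0.32 with the libraries centred at their medians. Srsf9 stood at 1.48, 2.57 and 2.49 against 1.99, 0.889 and 0, with overlap through IgG 1 (log2 fold change 1.13, limma adjusted p = 0.287).

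Of the remaining SR genes, Srsf7 stood at 2.67, 0.175 and 1.25 RPKM in the HuR libraries against 0.407, 0.0519 and 0.432, so HuR 2 lay inside the IgG range. Srsf4 stood at 0.194, 0.562 and 0.233 against 0.821, 0.056 and 0, its highest value being in IgG 1. Srsf12 had 1 read in HuR 3 and 0 in each other RIP library. These 3 genes were under the filter and not tested.

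Among the hnRNP genes, Hnrnpu, a nuclear scaffold protein that binds RNA and chromatin, had the lowest p. Hnrnpu (ENSMUSG00000039630.10, chr1:178321108-178337797, - strand) stood at 2.65, 3.83 and 2.54 RPKM in the HuR libraries, at 0.644, 0.297 and 0.0119 in the IgG libraries and at 0.375 in Input. Every HuR library lay above every IgG library and Input, and the log2 fold change was 2.16 (SE 0.696, limma adjusted p = 0.0756). Its paralogue Hnrnpul2 stood at 2.94, 2.11 and 3.22 against 1.84, 0.591 and 0.270, also without overlap (1.36, adjusted p = 0.204). Hnrnpul1, under the filter, stood at 0.838, 0.404 and 0.331 against 0.335, 0.269 and 0.0601, with HuR 3 just under IgG 1.

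The A/B group packages nascent transcripts and competes with SR proteins over splice site choice. Hnrnpa2b1 stood at 4.61, 4.34 and 2.57 RPKM in the HuR libraries against 1.56, 0.273 and 1.35 (log2 fold change 1.56, limma adjusted p = 0.162). Hnrnpa3 stood at 1.39, 0.771 and 0.682 against 0.305, 0.00725 and 0 (1.27, adjusted p = 0.108). Neither gene overlapped between the groups. Hnrnpa1 stood at 3.23, 6.27 and 0.425 RPKM against 0.0450, 0.268 and 0.235; the groups did not overlap, but HuR 3 lay within 2-fold of IgG 2, and with only 2 libraries at 0.5 RPKM or more the gene was not tested. Hnrnpab spread widely, at 12.4, 0.577 and 3.42 against 2.39, 0.132 and 0.811 (1.5, adjusted p = 0.238). Hnrnpa0, an intronless gene, stood at 1.28, 1.69 and 2.55 against 1.25, 0.364 and 1.96. HuR 1 lay within a few percent of IgG 1, and IgG 3 lay inside the HuR range, giving the largest p of the members tested (0.56, SE 0.732, adjusted p = 0.580).

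The H/F group binds G-rich stretches. Hnrnpf stood at 2.47, 2.51 and 0.817 RPKM against 0.430, 0.143 and 0.0475 without overlap (log2 fold change 1.72, limma adjusted p = 0.0968). Its relative Hnrnph1 stood at 2.23, 2.68 and 2.05 against 2.71, 0.0933 and 0.45, with IgG 1 above every HuR library (1.21, adjusted p = 0.266). Hnrnph3 stood at 1.84, 2.19 and 0.222 against 0.126, 0.0747 and 0.0230, and Hnrnph2 at 0.105, 0.963 and 0.424 against 0.191, 0 and 0. Both were under the filter, and only Hnrnph3 kept the groups apart.

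Hnrnpl, which binds CA repeats, stood at 3.17, 1.91 and 1.64 RPKM against 1.19, 0.133 and 0.486 (log2 fold change 1.39, limma adjusted p = 0.178), and its paralogue Hnrnpll, under the filter, at 0.454, 0.682 and 0.250 against 0.163, 0.0680 and 0.105. Both pairs of groups stayed apart. Hnrnpc, which binds U tracts itself, stood at 1.32, 1.87 and 1.23 against 1.44, 0.0713 and 0.824, overlapping through IgG 1 (0.78, adjusted p = 0.415, and -0.32 with centred libraries). Hnrnpm stood at 1.33, 0.385 and 1.40 against 0.625, 0.0662 and 0.0151 (1.08, adjusted p = 0.186), with HuR 2 below IgG 1. Hnrnpdl and Hnrnpr were under the filter, at 0.278 to 1.61 and 0.0625 to 0.262 RPKM in the HuR libraries against 0 to 0.432 and 0.000802 to 0.122 in the IgG libraries, both overlapping.

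The KH-domain proteins that bind C-rich RNA are Hnrnpk, Pcbp1 and Pcbp2, the last 2 known for stabilising mRNAs. Pcbp2 (ENSMUSG00000056851.14, chr15:102470539-102500061, + strand) stood at 3.46, 4.08 and 3.60 RPKM in the HuR libraries, at 1.27, 0.274 and 0.143 in the IgG libraries and at 0.505 in Input. The HuR libraries were tightly placed and all above IgG 1, with a log2 fold change of 2.13 (SE 0.738, limma adjusted p = 0.0848). Pcbp1, an intronless gene, stood at 3.70, 3.28 and 6.34 against 3.79, 0.636 and 0.246, and at 1.33 in Input. IgG 1 lay above 2 of the 3 HuR libraries, so the log2 fold change was 1.63 (adjusted p = 0.168) with all libraries and 2.37 (adjusted p = 0.0475) without IgG 1. Hnrnpk stood at 1.83, 1.39 and 3.07 against 0.864, 0.0865 and 0.859, without overlap (1.29, adjusted p = 0.205).

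The proteins of the 3' splice site are U2af1 and U2af2, which recognise the terminal AG and the polypyrimidine tract, and Ptbp1, which competes for pyrimidine tracts. U2af2 stood at 3.69, 1.85 and 0.305 RPKM against 0.736, 0.0794 and 0 (log2 fold change 1.49, limma adjusted p = 0.14), with HuR 3 below IgG 1. U2af1 stood at 0.127, 1.35 and 1.07 in the HuR libraries, or 2, 21 and 17 reads, and had 0 reads in each IgG library. Pseudogene copies of U2af1, described below, did have reads in IgG 1 and IgG 2. Ptbp1 stood at 1.67, 1.38 and 1.34 against 0.383, 0.00882 and 0.502, without overlap (1.35, adjusted p = 0.141). Ptbp2, its neuronal paralogue, stood at 0.338, 0.00481 and 0.0895 against 0.0559, 0 and 0.0044. Ptbp2 and U2af1 were under the filter.

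The Tra2 proteins bind GAA-rich enhancers. Tra2a stood at 0.356, 1.14 and 0.905 RPKM in the HuR libraries against 1.01, 0.0338 and 0.391, so that HuR 1 lay below IgG 1 and IgG 3 (log2 fold change 0.48, SE 0.583, limma adjusted p = 0.548, and -0.62 with centred libraries). Tra2b, under the filter, stood at 0.867, 0.0637 and 0.678 against 0.397, 0 and 0.386. Neither Tra2 gene kept the groups apart.

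Input gave a second reference, without replicates. All 3 HuR libraries lay above the Input mean for 33 of 38 members, against 25.4% of the genes with a read in any RIP library and 68.9% of tested genes. All 3 IgG libraries did so for 4 members, namely Srsf2, Hnrnpa0, Hnrnpa1 and Hnrnph3, against 6.11% and 20.7%. Of these, Srsf2 and Hnrnpa0 were tested, while Hnrnpa1 and Hnrnph3 were under the filter. Both member counts include members under the filter, whereas the shares of tested genes do not. Genes with a read mostly stood far lower than members, as given above, so neither share is a like background. The median member ratio to Input, as log2((RPKM + 0.5)/(Input + 0.5)), was 1.57, 1.39 and 1.33 in HuR 1, 2 and 3 and 0.59, -0.15 and -0.07 in IgG 1, 2 and 3. IgG 1 again stood nearest the HuR libraries. In a lysate of whole liver, fewer cells of a type and less RNA per cell cannot be told apart, and a ratio to Input refers to the pooled organ.

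Along the genes, reads were patchy and lay mostly in last exons in the HuR libraries. Overlapping listed exons were merged into 294 blocks of the 38 genes, and 101, 122 and 138 of these had a value above 0 in HuR 1, 2 and 3, 125, 83 and 55 in IgG 1, 2 and 3, and 187 in Input. Of 65 member blocks tested with limma, 0 passed the threshold, as did 0 of 11470 blocks overall (0%). Unadjusted, 16 of the 65 blocks were higher at p under 0.05, against 15.2% of all blocks tested. The median log2 fold change was 2.04 over 28 tested blocks that hold the last exon of any coding transcript. It was 0.80 over 37 other coding blocks, against 0.82 over all blocks tested. A median over the last-exon blocks of other genes was not computed, so 2.04 has no like background.

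Blocks holding the last exon of any coding transcript include the Pcbp2 block of 555 bases described below. They also include the whole of the single-block genes Hnrnpa0, Pcbp1 and Srsf12. Such blocks make up 52.1% of the members' exon length. They took 67.5%, 54.4% and 74.4% of member reads in HuR 1, 2 and 3 and 50.0%, 39.4% and 41.2% in IgG 1, 2 and 3, so the groups did not overlap. For single genes, the last exon is the block that is last in the most coding transcripts. Members with at least 20 reads and at least 2 blocks were taken gene by gene. Their median share of reads in the last exon was 67.8%, 62.5% and 79.5% in the HuR libraries (32 genes in each). In the IgG libraries it was 48.8% (26 genes), 20.2% (12 genes) and 0% (16 genes), beside a median share of length of 40.5%. Tested protein-coding genes had higher medians in each library, at 87.9%, 71.2% and 88.5% and then 54.3%, 42.2% and 46.1%. The shift toward the last exon in HuR RIP was shared with coding genes at large. In IgG 3, 9 of the 16 members with enough reads had none in the last exon, against 27.5% of tested coding genes.

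**Figure D3:**
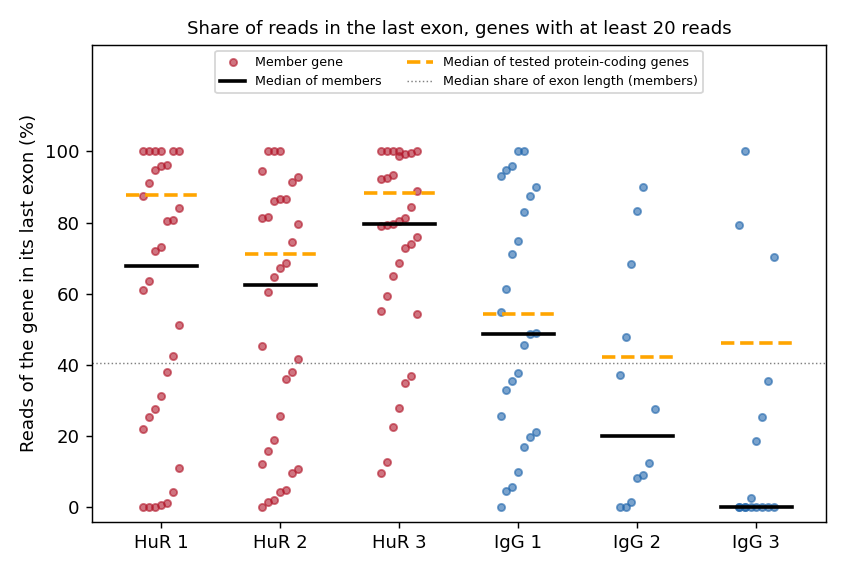
Share of each member's reads that lay in its last exon (y axis, percent) in each RIP library, for members with at least 20 reads there and at least 2 exon blocks; each dot is 1 gene. Black bars are member medians, 67.8%, 62.5% and 79.5% in HuR 1, 2 and 3 and 48.8%, 20.2% and 0% in IgG 1, 2 and 3; orange dashes are medians of tested protein-coding genes and the dotted line the members' median share of length (40.5%).

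The 5 member blocks of smallest p lay in Srsf11, Srsf3, Pcbp2 and Hnrnpa3, all with a limma adjusted p of 0.189. The Srsf11 block, the Hnrnpa3 block and the Srsf3 last exon passed the filter only through the HuR libraries, which itself sets their groups apart. In Srsf3, the first exon of 114 bases stood at 20.1, 27.7 and 6.85 RPKM in the HuR libraries against 0, 2.30 and 0, and the last exon of 1983 bases at 2.80, 3.06 and 4.38 against 0.128, 0.208 and 0.0175. Both ends of Srsf3 stood above every IgG value, with log2 fold changes of 4.19 (SE 1.18) and 2.66 (SE 0.874). The Srsf3 window printed above lies in that last exon.

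In Srsf11 and Pcbp2, reads of the strongest blocks fell in intervals listed for retained-intron transcripts, and which RNA they came from was not tested. The Srsf11 block of 2161 bases stood at 2.21, 2.41 and 1.91 RPKM in the HuR libraries and at 0 in all 3 IgG libraries. Most of it lay in a single listed exon of 2122 bases that GENCODE M21 gives only to a retained-intron transcript (2.25, 2.37 and 1.61 RPKM), with the rest in listed exons of 64 and 333 bases of other retained-intron transcripts, while the coding exon of 134 bases inside it had 0 in every RIP library. The Srsf11 last exon, by contrast, stood at 0.0221, 0.592 and 2.02. In Pcbp2, the block of 555 bases stood at 20.1, 15.8 and 6.90 against 1.82, 0.541 and 0, and its listed exon of 555 bases, again in a retained-intron transcript only, held 18.5, 15.8 and 6.90. The Pcbp2 last exon stood at 3.45, 4.95 and 6.82 against 2.50, 0.325 and 0.0847. In Hnrnpa3, a block of 436 bases stood at 1.46, 1.05 and 0.598 against 0 in each IgG library (log2 fold change 1.58, SE 0.491).

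**Figure D4:**
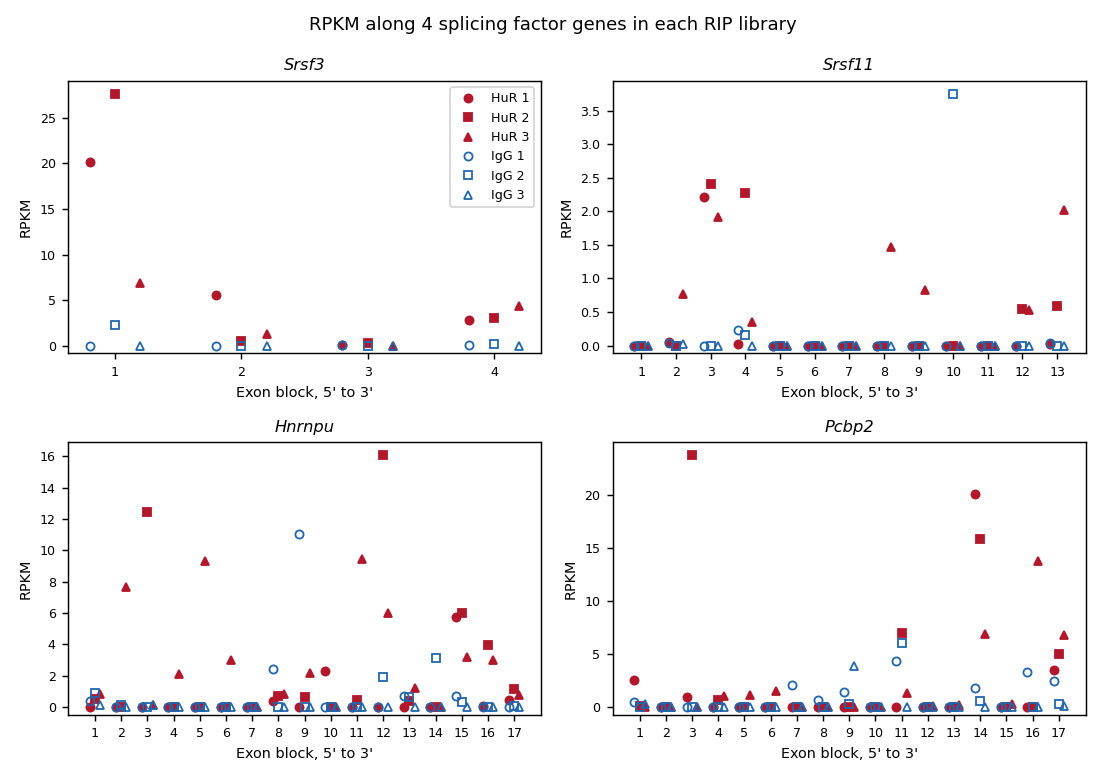
RPKM of each exon block (y axis, linear) along Srsf3, Srsf11, Hnrnpu and Pcbp2, numbered from the 5' end; filled red symbols are HuR libraries and open blue symbols IgG libraries. The first and last blocks of Srsf3, block 3 of Srsf11 (2.21, 2.41 and 1.91 in the HuR libraries) and block 14 of Pcbp2 (20.1, 15.8 and 6.90) carry reads in all 3 HuR libraries, while many other blocks carry reads in only 1 library.

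In Hnrnpu, the last coding exon of 5065 bases stood at 5.76, 6.03 and 3.21 RPKM in the HuR libraries against 0.722, 0.326 and 0 (log2 fold change 2.74, limma adjusted p = 0.197), and the window with 13 U in a row lies in it. Its highest block, of 255 bases, stood at 0, 16.1 and 5.98, with no read in HuR 1. Hnrnpk reads were concentrated in the last exon of 1335 bases, at 7.99, 5.43 and 12.8 against 2.79, 0.281 and 3.09. That exon held 96.3%, 86.1% and 92.2% of Hnrnpk reads in the HuR libraries on 22.1% of the gene's length. Srsf6 had 87.6%, 92.7% and 75.9% of its reads in a last exon of 56.3% of its length (4.59, 5.19 and 2.25 RPKM against 0.978, 0.0552 and 0). Its share there was 37.8% in IgG 1 and 0% in IgG 3.

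Other members did not follow that layout. Hnrnph1 had 4.19%, 9.80% and 9.65% of its reads in the last exon, and its highest block was an internal one of 581 bases, at 7.76, 5.56 and 0.766 RPKM against 7.93, 0 and 0. Srsf5 had 22.0%, 12.2% and 27.9% in the last exon, and its highest block was an internal one of 1673 bases at 16.3, 20.5 and 5.55 against 17.0, 0.763 and 1.95. In both genes that internal block stood as high in IgG 1 as in HuR 1. Hnrnpl, whose printed window of 28 U lies in its last exon, had 4.93, 0.544 and 8.60 RPKM there (419 bases) against 3.31, 0 and 0, so HuR 2 lay below IgG 1.

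Single libraries set the highest block of several members. The highest Hnrnpa2b1 block (211 bases) stood at 26.2 in HuR 1 and at 0 in HuR 2 and HuR 3, with 15.3 in IgG 3, whereas its last exon stood at 8.19, 7.60 and 6.99 against 1.68, 0.0953 and 2.01. The highest Ptbp1 block (217 bases) stood at 20.3 in HuR 2 alone among HuR libraries, with 7.35 in IgG 3, and its last exon at 4.45, 0.949 and 3.56 against 0.496, 0.0235 and 0.341. The highest Hnrnpa1 block (159 bases) stood at 0, 14.8 and 0.701 against 0, 0.472 and 3.05, and its last exon at 5.29, 8.88 and 0.586 against 0.0369, 0.395 and 0. In these 3 genes the last exon, and not the highest block, kept the HuR libraries above the IgG libraries. The highest blocks of Ptbp2 (34 bases, 16.4 in HuR 3) and U2af1 (67 bases, 11.3 in HuR 2) had reads in 1 library only. The last exon of Ptbp2 stood at 0, 0 and 0.0216 and that of U2af1 at 0.137, 0.139 and 2.31, with both at 0 in every IgG library.

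For the remaining members described by exon, the last exon was often also the highest block. This was so for Hnrnpc (2.51, 3.58 and 2.14 RPKM against 3.22, 0.126 and 0), Srsf2 (3.22, 1.65 and 1.61 against 1.55, 0.617 and 0.999) and Srsf7 (3.82, 0.251 and 1.79 against 0.542, 0.0743 and 0). It was so too for U2af2 (9.43, 1.46 and 0.344 against 0.167, 0 and 0) and Tra2a (1.12, 0 and 5.43 against 6.24, 0 and 0). Of these 5 genes, Srsf2 and U2af2 had last exons whose HuR values all lay above the IgG values. The Srsf1 last exon stood at 1.93, 1.51 and 2.89 against 1.28, 0.318 and 0.0516, beside a first-exon block at 3.05, 3.63 and 0.113 against 1.89, 0.148 and 0.

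Exon blocks annotated only in nonsense-mediated decay transcripts were a small part of the signal. A decay exon merged with an exon of a coding transcript falls outside this class. The Srsf3 block of 2804 bases, with 1 coding and 2 decay transcripts, is not in it. The class therefore does not measure the premature-stop cassettes of the family as a whole. There were 11 such blocks in 8 members, on 3.23% of member exon length. They held 115, 167 and 168 reads in HuR 1, 2 and 3 and 9.5, 5 and 2 in IgG 1, 2 and 3. As shares of member reads these are 1.13%, 1.83% and 2.28% against 0.337%, 0.624% and 0.133%. The 2 groups did not overlap, and in every library the share was below the share of length. None of the 11 blocks passed the filter, so none was tested. The share of reads in such exons over all genes was not computed.

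Those decay-only reads came from few blocks, and different blocks in different libraries. The Tra2b block (1559 bases, chr16:22258064-22259622), annotated in 3 decay transcripts, stood at 1.98, 0.073 and 0.429 RPKM in the HuR libraries against 0.081, 0 and 0, and was the highest block of Tra2b. The Tra2b last exon stood at 0.454, 0.0818 and 1.11 against 0.735, 0 and 0. The larger Srsf4 block (1097 bases) stood at 0.206, 1.45 and 0.203 against 0.0575, 0 and 0. Downstream of the Hnrnpu coding transcript, a block of 552 bases stood at 0.068, 3.99 and 3.03 against 0, 0 and 0, and one of 2088 bases at 0.453, 1.16 and 0.783 against 0.015, 0.09 and 0. In these Srsf4, Tra2b and Hnrnpu blocks, HuR values lay above IgG values except for Tra2b in HuR 2. Other decay-only blocks went the other way, at 0 in each HuR library. The smaller Srsf4 block (207 bases) stood at 1.52, 0 and 0 in IgG 1, 2 and 3. A Hnrnpa1 block of 148 bases stood there at 0.426, 0 and 0.469. The block of 2088 bases overlaps Cox20 on the opposite strand, and the strand used in counting is not given in the sources used here. A block of 83 bases in Hnrnpll had 21.9 RPKM in HuR 3 and 0 in every other RIP library.

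Genes that work with the members were read from the same fit. Of 62 core spliceosome and U2 genes, 16 were tested and 0 passed in either direction, with 3 higher at an unadjusted p under 0.05. Over all tested genes these shares were 0.672% called higher, 0.127% called lower and 27.9% higher unadjusted. Of 67 other splicing regulators, 28 were tested and 0 passed (8 higher unadjusted), of 21 SR protein kinases and transport factors 8 were tested and 0 passed (3 unadjusted), and of 21 exon junction and decay factors 9 were tested and 0 passed (6 unadjusted). Their median log2 fold changes were 0.90, 1.12, 1.13 and 1.55, beside 0.92 for all tested genes.

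The exon junction and decay list had the highest of these medians. Pnrc2, which links decay factors to decapping, stood at 2.17, 4.33 and 1.20 RPKM in the HuR libraries against 0.0329, 0.137 and 0 (log2 fold change 2.34, limma adjusted p = 0.0572). Rbm8a, the Y14 subunit of the exon junction complex, stood at 0.865, 0.898 and 0.728 against 0.0196, 0 and 0 (1.39, adjusted p = 0.0788). In both genes every HuR library stood several-fold above every IgG library. They were named as the genes of smallest p in their list, and both passed the filter only through the HuR libraries. Their separation is therefore no separate support. Among kinases and transport factors, Prpf4b gave 1.34 (adjusted p = 0.0988) and Tnpo1, an import receptor for hnRNP proteins, 1.46 (adjusted p = 0.108). In the core list, Luc7l2, a U1-associated protein, gave 2.08 (adjusted p = 0.0908) and Prpf38b 1.43 (adjusted p = 0.1). Among other regulators, the RNA helicase Ddx17 gave 2.14 (adjusted p = 0.0967). Taf15, an RNA-binding protein, gave 3.69 (adjusted p = 0.0765), but its HuR values were 1.12, 5.58 and 80.3, so that HuR 3 set most of its mean. Pnrc2 passed with the filter at RPKM 1 (adjusted p = 0.0383) and Rbm8a with TMM-like scaling (0.048). Some of these genes passed when 1 library was left out: Ddx17 (adjusted p = 0.0467), Luc7l2 (0.0447), Tnpo1 (0.0465) and Pnrc2 (0.0481) without IgG 1, Pnrc2 without HuR 3 (0.0454), and Taf15 without HuR 1 (0.00794), HuR 2 (0.0135) or IgG 3 (0.0237). With protein-coding genes alone, the fit that called 18.4% of genes, Pnrc2, Rbm8a, Luc7l2, Prpf38b, Ddx17 and Taf15 passed. All genes named from these lists were picked by their p in the main fit, so these passes are not independent of that choice.

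Several members share sequence with copies elsewhere or with a neighbour. Transcripts annotated as pseudogenes matched 16 members over at least 300 bases at 95% identity or more, with 32 such genes for Hnrnpa3, 9 for Hnrnpa1, 6 for Hnrnpf and 3 for Srsf3. Reads listed on the Hnrnpa3 copies were 226, 349 and 125 in HuR RIP and then 20, 16 and 146 in IgG RIP, beside 191, 105 and 95 and then 25, 1 and 0 on Hnrnpa3 itself. On the copy of Srsf3 in the table they were 211, 0 and 20 and then 10, 25 and 0, against 242, 265 and 263 and then 7.01, 18.0 and 1 on Srsf3. Copies of U2af1 held 92, 0 and 4 reads in HuR RIP and then 9, 21 and 0 in IgG RIP. Those of Hnrnpa1 held 3, 55 and 53 and then 37, 43 and 60. In every IgG library and in HuR 3, the Hnrnpa1 copies held more reads than Hnrnpa1 itself. How reads matching both were placed was not given in the sources used here, so values of these members are uncertain to that extent. Hnrnpa1 and U2af1 are among the 18 members without overlap, so that count is uncertain too. Hnrnpu, Srsf11 and Pcbp2 had no such copy. Blocks of Hnrnpab, Hnrnpf, Hnrnpk, Hnrnpr, Hnrnpu, Pcbp1, Pcbp2, Ptbp1, Srsf1, Srsf2 and Srsf4 overlap annotated genes on the opposite strand, and blocks of Hnrnpm, Hnrnpul2 and Pcbp2 overlap genes on the same strand, so reads from those neighbours cannot be told apart from the members' own in the overlap.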

How the data were processed

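Per the submitters' processing notes, reads were handled with Bowtie2 and featureCounts on mm10 (versions: not given in the sources used here). An exon table of 388562 lines was deposited, with RPKM per library, the Input mean, log2 fold columns and q-values. Numbers had lost their decimal mark and were restored from the authors' fold columns: of 138826 distinct sets of values, 138761 matched all 6 folds and 65 matched 5. Reads over several listed exons had been split between them, so RPKM times length was summed per gene and divided by merged exon length. Between 85.8% and 91.4% of single-line gene values were whole reads within 0.05. The authors' deposited q-value was under 0.05 in 0 lines (lowest 0.110, and 0.119 among member lines). Tests used limma 3.58.1 (R 4.3.3, trend and robust), checked on simulated data. Exons were tested as merged blocks in place of listed exons because of the splitting. GENCODE M21 held 98.7% of the members' listed exons at the same coordinates, and blastn 2.17.0 found near copies. Input values carry no error, since the table holds their mean.

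Members and lists were chosen with earlier results of these data known. Values are named for 22 members whatever they showed, for the 3 members of smallest and of largest p, and for the 2 genes of smallest p in each list; other members were added for completeness. Of exons, the last and the highest block of each such member and the 5 of smallest p are given. Alternatives were other pseudocounts, filters, scalings and gene sets, a replicate block, no trend, and each library left out. Same-numbered HuR and IgG libraries deviated together weakly (r = 0.14, 0.11 and 0.09 across genes). Every pair of different numbers had an r below 0 (-0.086 to -0.005). Deviations were taken from each group's mean and sum to 0 within a gene. An r above 0 for same numbers therefore pulls the others below 0, and the negative values are no separate observation. Whether same-numbered libraries share a liver was not tested, and the main fit did not take numbers as pairs.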

Additional observations from a re-analysis of the deposited data

How the results depend on the processing

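The member count of 0 called held under each alternative except 3: 1 member passed with the filter at RPKM 1, 5 with protein-coding genes only, and 0 to 5 with 1 library left out (5 without IgG 1). Counts over all genes moved more. Genes called higher and lower, 37 and 7 as reported, were 3 and 1 with a pseudocount of 1, 0 and 0 without a filter, 144 and 20 with the filter at RPKM 1, 1 and 18 with centred libraries, and 4 and 4 with quantile normalization. TMM-like scaling called 320 lower, protein-coding genes only 727 higher, and the fit without trend 0 and 0. Leaving out 1 library gave 0 to 720 higher and 0 to 35 lower. The replicate block gave 0 and 0, with no member called, and each library correlated best with its own number. Chosen after seeing the data, the block with HuR 2 and HuR 3 exchanged gave 0 and 0 (14 members at an unadjusted p under 0.05, against 10 with the numbers as named), as did leaving out both HuR 3 and IgG 1. Exon calls stayed at 0, also over exons as listed. Scaling turned 5 tested members: Hnrnpm stood at -0.024 with centred libraries, and with centred, TMM-like and quantile values in turn, Hnrnpa0 stood at -0.54, -0.53 and -0.37, Hnrnpc at -0.32, -0.056 and -0.14, Srsf2 at -0.32, -0.33 and -0.28, and Tra2a at -0.62, -0.11 and -0.31. The median ratio of HuR RIP to Input, averaged over libraries, was 1.43, and 2.33 and 0.97 with pseudocounts of 0.1 and 1. The cause of these changes was not tested. Few reads limit the low members: in IgG 3, the deepest library, 15 of 38 had fewer than 3 reads, and in IgG 1, the shallowest, 3 did.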
